A study of Rattus norvegicus with 11 samples.

Results

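The AP-1 and immediate early genes described here are 10 transcripts, namely Jun, Junb and Jund of the Jun family, Fos, Fosb, Fosl1 and Fosl2 of the Fos family, and Egr1, Atf3 and Ier2. They were taken by gene symbol and make up 10 of the 18507 genes in the expression table of rat bladder tissues. The set was selected on earlier results from these same samples, in which the obstruction contrasts of both weeks were in view, so the differences between PBOO and normal tissues are a description of these genes and carry no test. Calls of these genes by limma are counted below beside those of all genes, as part of this description. All 10 genes passed the filter on low values at both weeks.

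Bladder tissues came from female Sprague-Dawley rats, adult at the time of surgery. In rats with partial bladder outlet obstruction (PBOO), a suture was tied around the bladder neck and the urethra over a thin tube that was then withdrawn, whereas in normal rats the abdominal wall was cut and closed again with no tie placed. The groups were PBOO week 4 (3 samples), normal week 4 (3 samples), PBOO week 5 (2 samples) and normal week 5 (3 samples), and the authors left out a PBOO sample of week 5 after quality control of its library. The model gives whole bladder tissue only, and in bulk tissue fewer cells of a type and less RNA per cell cannot be told apart. Expression was measured by RNA-seq and is given as FPKM, fragments scaled to transcript length and to all mapped fragments of the sample.

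Fos and Jun proteins pair through a leucine zipper to form AP-1, a transcription factor that binds the sequence TGACTCA. Jun proteins can pair with each other, while Fos proteins need a Jun partner. Most of these genes are immediate early genes: their transcription starts within minutes of a growth factor, stretch or stress signal, without new protein synthesis, and their mRNAs are short-lived. Mechanical stretch is a known stimulus for Fos and Egr1 in smooth muscle.

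Promoter sequences are shown for Junb, Ier2 and Jund. Junb and Ier2 were taken because they lay apart between PBOO and normal tissues in both weeks. Jund was taken because the ratio of Junb to Jund, unlike that of Junb to Jun, lay apart in both weeks. The sequences are from RefSeq (GRCr8), and the promoter table used here matched 7 of the 10 genes, without Fos, Jun and Atf3. Each line is the 250 bases before the transcription start, 5′ to 3′ on the strand of the gene, from chr19:40080876-40081125 (plus strand) for Junb, chr19:40399123-40399372 (plus strand) for Ier2 and chr16:18769772-18770021 (minus strand) for Jund. Capitals mark a TATA box (TATAAA), a cAMP response element or CRE (TGACGTCA), its core (TGACGT) and an EGR site (GCGTGGGCG).
Junb: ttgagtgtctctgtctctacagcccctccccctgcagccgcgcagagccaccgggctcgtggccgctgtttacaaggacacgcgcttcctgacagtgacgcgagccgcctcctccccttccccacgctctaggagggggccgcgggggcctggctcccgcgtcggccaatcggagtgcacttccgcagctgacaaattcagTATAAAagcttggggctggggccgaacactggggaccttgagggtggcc
Ier2: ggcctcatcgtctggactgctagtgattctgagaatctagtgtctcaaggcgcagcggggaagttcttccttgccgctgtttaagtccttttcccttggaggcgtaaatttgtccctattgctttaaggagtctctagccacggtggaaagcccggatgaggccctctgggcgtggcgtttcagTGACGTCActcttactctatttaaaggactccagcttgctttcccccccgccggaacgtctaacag
Jund: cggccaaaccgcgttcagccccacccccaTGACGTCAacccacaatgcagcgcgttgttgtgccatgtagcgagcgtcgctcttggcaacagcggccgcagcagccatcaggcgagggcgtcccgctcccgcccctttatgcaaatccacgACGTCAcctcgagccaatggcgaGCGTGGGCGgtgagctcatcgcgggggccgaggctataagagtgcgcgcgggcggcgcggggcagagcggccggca

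In Junb, the only match in this window was the TATA box that begins 49 bases before the start. Ier2 held a complete CRE that begins 66 bases before its start, and Jund held a complete CRE at 221 bases, a separate core at 99 bases and an EGR site at 76 bases. Motifs were searched on both strands, and each complete CRE also contains the core on both strands. Among 33469 rat promoter windows of the same length, 1.59% held a CRE, 6.95% its core, 12.9% a TATA box and 2.85% an EGR site (GCGTGGGCG or GCGGGGGCG). The AP-1 site TGACTCA was found in 4.05% of all windows and not in the windows of these 7 genes. The CArG box, to which serum response factor binds, was found in 1.497% of all windows, and Egr1 held 2 of them, beginning 105 and 83 bases before its start. A match is a run of letters in this window and was not tested as a binding site.

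The 11 samples differed in ways that touch these values. Week 4 and week 5 values were less alike (rank correlations up to 0.698) than samples within week 4 (at least 0.941) or within week 5 (at least 0.800), and 4871 genes had a listed value of 0 throughout week 4 against 403 throughout week 5, which limits any comparison between the weeks. The sequencing depth of the samples is unknown. Over all genes tested, the median log2 fold change of PBOO against normal tissues stood at -0.25 at week 4 and 0.12 at week 5. Smooth muscle markers (all 10 detected) summed to between 25717 and 27883 FPKM in normal and between 51368 and 82648 in PBOO week 4 tissues, and to between 25009 and 29412 in normal against 997 and 1867 in PBOO week 5 tissues. Fibroblast markers (8 of 9 downregulated by limma at week 5) summed to between 1562 and 2018 FPKM in normal and to 126 and 179 in PBOO week 5 tissues, while 6 of 10 leukocyte markers tested were upregulated. All 11 urothelial markers tested at week 4 had a lower level with PBOO (median log2 fold change -0.73), and the 13 markers, of which Upk3b and Krt7 were at 0 in all week 4 samples, summed to between 6307 and 8000 FPKM in normal and between 3938 and 4685 in PBOO week 4 tissues, apart in the same direction as Junb and Ier2. The week 5 sums overlapped, between 7736 and 9730 FPKM in normal against 7895 and 8395 in PBOO tissues. Of the 13 markers at week 5, 5 were higher and 8 lower with PBOO, so the overlapping sums held opposite changes. By limma 1 was upregulated, Krt5, with means of 134 FPKM in normal and 1820 ± 1471 (SD, n = 2) in PBOO tissues. The 4 downregulated were Upk2 (means of 1704 in normal and 324 in PBOO tissues), Krt18 (949 and 333), Upk3b (70.2 and 9.02) and Krt20 (66.9 and 0.661). Nerve and glia markers had a median of -0.69 at week 4, with sums between 1026 and 1444 FPKM in normal and between 631 and 931 in PBOO tissues. Most of these sums was Uchl1, with means of 1146 FPKM in normal and 675 in PBOO tissues. Of the 8 markers, 6 were lower and 2 higher (Tubb3 at 1.10 ± 0.40 and Gap43 at 0.26 ± 0.35). Normal week 4 replicate 1 had low sums of leukocyte markers (67.8 FPKM against 420 and 470) and of fibroblast markers (1143 against 4288 and 4346). The part of cell composition in the results below was not tested.

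At week 4, PBOO bladder tissues had lower levels of Fos, Fosb, Junb and Ier2 than every normal tissue (4 of 10 genes, beside 34.9% of all genes tested), on the log scale 4.11-fold lower for Fos, 4.35-fold for Fosb, 2.05-fold for Junb and 1.97-fold for Ier2. With median-ratio scaling Fos and Fosb overlapped. At week 5, Junb, Ier2 and Fosl2 were instead higher in both PBOO tissues than in every normal tissue (3 of 10, beside 35.3% of all genes) and Fosl1 was lower (1 of 10, beside 25.0%). The 4 lower genes at week 4 and the 3 higher ones at week 5 were near the shares of all genes. Lying apart was therefore not particular to this set. Junb and Ier2 lay apart in opposite directions in the 2 weeks, which also held for 15.0% of 10684 genes tested in both weeks. Jun, Jund, Egr1 and Atf3 overlapped between the groups in both weeks.

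**Figure D1:**
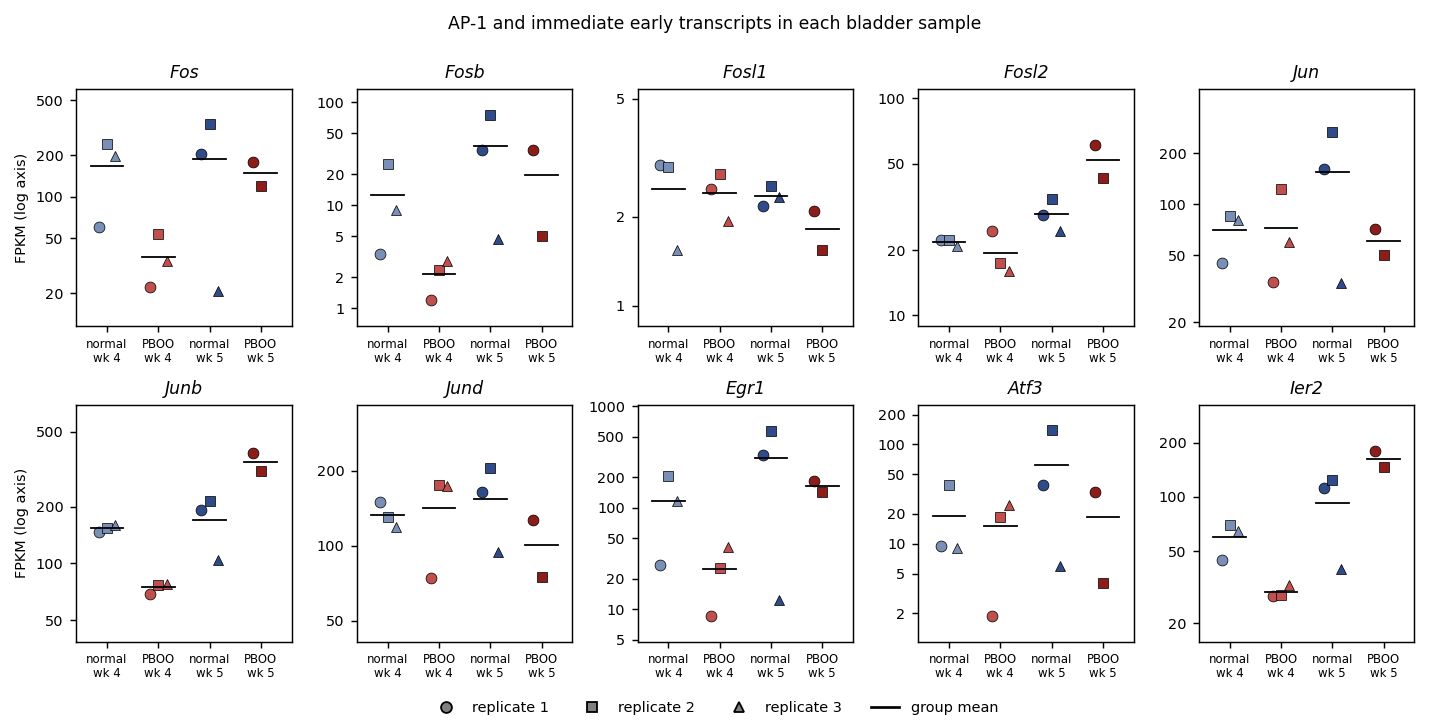
FPKM (log axis) of the 10 genes in each of the 11 samples, by group on the horizontal axis. Symbols mark replicates and bars the group means. Junb and Ier2 lay below the normal samples in PBOO week 4 and above them in PBOO week 5, and normal week 5 replicate 3 was the lowest of its group for 9 of the 10 genes.

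Junb, a Jun protein that is a weaker activator than Jun itself, had narrow ranges at week 4. Its FPKM at week 4 were 146, 153 and 160.0 in the normal and 69.0, 77.2 and 77.5 in the PBOO tissues, and at week 5 they were 191, 214 and 105 in the normal and 386 and 307 in the PBOO tissues. The groups did not overlap in either week, with PBOO tissues low at week 4 and high at week 5. The log2 fold change was -1.04 ± 0.10 (SE, n = 3 and 3) at week 4 and 1.08 ± 0.33 (SE, n = 2 and 3) at week 5. Relative to the median of all genes it was -0.79 at week 4 and 0.96 at week 5. Without normal week 5 replicate 3, the lowest sample of its group, the week 5 value was 0.77 ± 0.20.

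Ier2, a small nuclear protein of the immediate early response, followed the same course as Junb. Its FPKM at week 4 were 44.99, 69.8 and 64.5 in the normal and 28.4, 28.5 and 32.6 in the PBOO tissues. At week 5 they were 112, 124 and 40.0 in the normal and 180.1 and 146 in the PBOO tissues. The groups did not overlap in either week, with PBOO tissues low at week 4 and high at week 5. Ier2 changed on the log2 scale by -0.98 ± 0.18 at week 4 and 0.97 ± 0.51 at week 5, and without normal week 5 replicate 3 the latter was 0.45 ± 0.18. Junb and Ier2 stayed lower at week 4 with median-ratio scaling, at -0.79 and -0.73, with groups still apart.

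Fos, the founding partner of Jun, had FPKM at week 4 of 60.1, 240.4 and 196 in the normal and 22.4, 53.5 and 34.0 in the PBOO tissues. At week 5 they were 205, 333 and 20.9 in the normal and 177 and 120.2 in the PBOO tissues. PBOO week 4 tissues were all below the normal ones, by a narrow margin against normal replicate 1, and with median-ratio scaling these groups overlapped. At week 5 the PBOO values lay inside the range of the normal ones. The fitted log2 change was -2.04 ± 0.55 at week 4 (-2.65 ± 0.34 without normal week 4 replicate 1) and 0.37 ± 1.17 at week 5, which turned to -0.84 ± 0.33 without normal week 5 replicate 3.

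Fosb, a close relative of Fos, had FPKM at week 4 of 3.33, 25.2 and 9.06 in the normal and 1.20, 2.37 and 2.90 in the PBOO tissues. At week 5 they were 34.0, 74.5 and 4.65 in the normal and 34.6 and 4.99 in the PBOO tissues. The week 4 groups did not overlap, although normal replicate 1 was close to the PBOO values and the groups overlapped with median-ratio scaling. Fosb changed on the log2 scale by -2.12 ± 0.70 at week 4 and -0.79 ± 1.34 at week 5, where the PBOO samples themselves differed 6.93-fold. With single samples left out it ran from -2.84 (without normal replicate 1) to -1.40 (without normal replicate 2) at week 4 and from -2.17 (without PBOO replicate 1) to 0.59 (without PBOO replicate 2) at week 5.

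Fosl1 and Fosl2 are Fos proteins without the strong activating region of Fos. Fosl2 was steady at week 4, at 22.3, 22.3 and 21.0 FPKM in the normal and 24.4, 17.5 and 16.1 in the PBOO tissues. At week 5 it was 28.8, 34.2 and 24.6 in the normal and 61.1 and 43.1 in the PBOO tissues, with both PBOO samples above all normal ones. Its log2 fold change was -0.20 ± 0.17 at week 4 and 0.82 ± 0.21 at week 5, and 0.71 ± 0.23 without normal week 5 replicate 3. Fosl1 was the least abundant gene of the set in most samples, between 1.54 and 2.99 FPKM in all 11 samples. Both of its PBOO week 5 values, 2.09 and 1.54 FPKM, were below the normal ones of 2.17, 2.54 and 2.32, and with quantile normalization these groups overlapped. The log2 fold change of Fosl1 was -0.01 ± 0.31 at week 4 and -0.36 ± 0.23 at week 5.

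Jun, the strongest activator of its family, had FPKM at week 4 of 45.1, 84.7 and 80.2 in the normal and 34.7, 123 and 60.0 in the PBOO tissues. At week 5 they were 162, 267 and 34.2 in the normal and 71.1 and 50.1 in the PBOO tissues. The groups overlapped in both weeks, at week 5 through normal replicate 3. The log2 fold change was -0.09 ± 0.46 at week 4 and -0.93 ± 0.85 at week 5, which was -1.80 ± 0.32 without that replicate. Jund, the Jun protein that is present in resting cells, had FPKM at week 4 of 151, 131 and 119 in the normal and 74.0, 176 and 174 in the PBOO tissues. At week 5 Jund was at 164, 205 and 94.3 FPKM in the normal and at 127 and 75.2 in the PBOO tissues. Its groups overlapped in both weeks, with log2 fold changes of -0.02 ± 0.33 and -0.59 ± 0.39. With single samples left out, Jun ran from -0.56 to 0.35 at week 4 and from -1.80 to -0.32 at week 5, and Jund from -0.23 to 0.40 and from -0.96 to -0.21. At week 4, Jun, Jund, Fosl1 and Fosl2 turned from slightly lower to slightly higher with median-ratio or quantile scaling.

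Egr1, a zinc finger factor that is switched on by the same signals as Fos, had the widest spread of the set among normal tissues of week 5. Its FPKM at week 4 were 27.3, 206 and 115 in the normal and 8.55, 25.6 and 41.1 in the PBOO tissues, and at week 5 they were 331, 577 and 12.3 in the normal and 182 and 142 in the PBOO tissues. The groups overlapped in both weeks through normal replicate 1 at week 4 and normal replicate 3 at week 5. The log2 fold change was -2.05 ± 0.83 at week 4 and 0.27 ± 1.63 at week 5, and the latter became -1.44 ± 0.33 without normal week 5 replicate 3. Leaving out single samples moved the Egr1 value between -2.88 (without normal replicate 1) and -1.41 (without PBOO replicate 1) at week 4, and up to 1.33 (without normal replicate 2) at week 5. Atf3, a bZIP factor of the stress response that can pair with Jun proteins, had FPKM at week 4 of 9.41, 38.7 and 9.09 in the normal and 1.86, 18.5 and 24.5 in the PBOO tissues. At week 5 Atf3 was at 38.8, 140 and 6.04 FPKM in the normal and at 33.1 and 4.02 in the PBOO tissues. It overlapped in both weeks, with log2 fold changes of -0.64 ± 1.02 and -1.46 ± 1.48. With single samples left out, Atf3 ran from -1.31 to 0.51 (without PBOO replicate 1) at week 4 and from -2.97 (without PBOO replicate 1) to 0.05 (without PBOO replicate 2) at week 5.

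**Figure D2:**
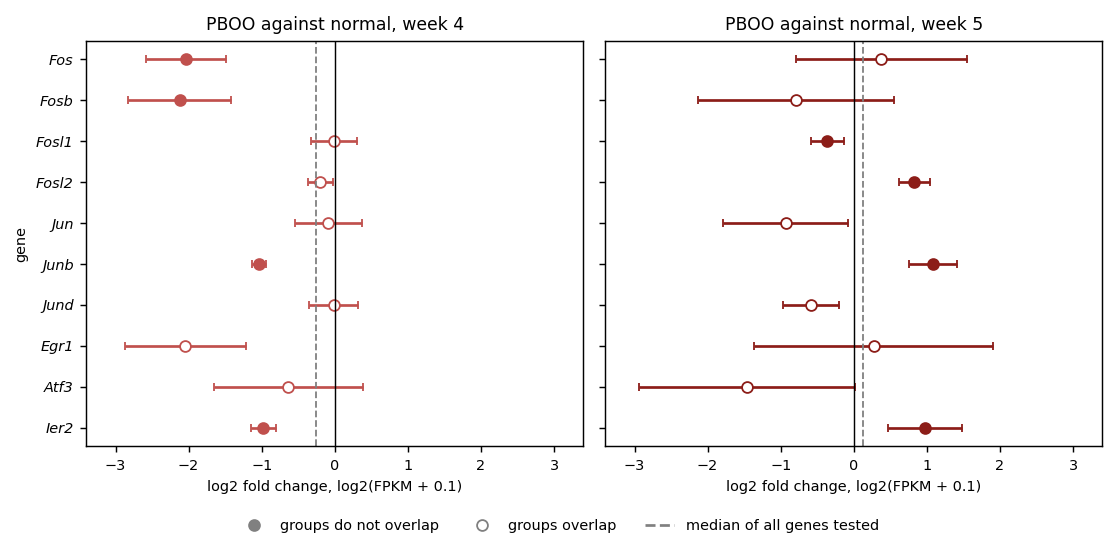
Log2 fold change of PBOO against normal tissues on the log2(FPKM + 0.1) scale, with its SE, for the 10 genes at week 4 (left) and week 5 (right). Filled points mark groups that do not overlap, and the dashed line is the median of all genes tested. Junb and Ier2 lie left of zero at week 4 and right of it at week 5.

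Counted together at week 4, all 10 genes had a negative log2 fold change, with a median of -0.81 against -0.25 over all 11320 genes tested, of which 75.8% were negative. With median-ratio scaling 6 were lower and 4 higher. Calls of the 10 genes are only a description, because the values behind them were in view when the genes were chosen. By limma with a 2-fold change and an adjusted p under 0.05, 1 gene (Junb) was downregulated and 0 were upregulated, beside 0.106% and 0.265% of all genes. The Junb call was lost with no filter on low values, with median-ratio or quantile scaling, without the trend, and when any 1 sample other than normal week 4 replicate 1 was left out. With a 2-fold change and p under 0.05 before adjustment, 4 (Egr1, Fos, Fosb and Junb) were lower and 0 higher, beside 2.45% and 2.46% of all genes. The groups did not overlap for 4 lower genes (Fos, Fosb, Ier2 and Junb) and 0 higher ones, beside 34.9% and 6.63% of all genes. The count of lower genes was near the share of all genes.

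At week 5, 5 of the 10 genes were higher and 5 lower, with a median of -0.04 against 0.12 over 13685 genes. At an adjusted p under 0.05 with a 2-fold change 0 of the 10 were called in either direction by limma, beside 7.91% of all genes upward and 11.4% downward. At an unadjusted p the counts were 1 higher (Junb) and 0 lower, beside 9.82% and 12.6%. These counts depended on the setting. At the adjusted threshold Junb was called in the joint fit and Jun without normal week 5 replicate 3. The unadjusted call of Junb was lost with median-ratio or quantile scaling, with a replicate block and without normal week 5 replicate 3. Groups that did not overlap numbered 3 higher (Fosl2, Ier2 and Junb) and 1 lower (Fosl1), beside 35.3% and 25.0% of all genes. The count of higher genes was near the share of all genes. The week 5 median was -0.87 without normal week 5 replicate 3 and 0.52 without PBOO week 5 replicate 2.

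The make-up of the Fos and Jun transcripts also shifted, in ratios within a sample that a single scaling factor per sample does not change. These ratios were chosen after their values were seen and are a description. The ratio of Fos to Jun ran from 1.33 to 2.84 in normal and from 0.437 to 0.643 in PBOO week 4 tissues, and from 0.610 to 1.26 in normal against 2.40 and 2.49 in PBOO week 5 tissues. It was therefore lower in all PBOO tissues at week 4 and higher in both at week 5. The ratio of Junb to Jund ran from 0.973 to 1.34 in normal and from 0.438 to 0.932 in PBOO week 4 tissues, and from 1.04 to 1.17 in normal against 3.04 and 4.08 in PBOO week 5 tissues. Junb held 44.9% and 51.0% of the summed FPKM of the 7 Fos and Jun genes in PBOO week 5 tissues, against 24.3%, 18.9% and 36.6% in the normal ones. The ratio of Junb to Fos overlapped between the groups in both weeks. That of Junb to Jun overlapped at week 4, from 1.81 to 3.25 in normal and from 0.630 to 1.99 in PBOO tissues. At week 5 it ran from 0.803 to 3.06 in normal against 5.42 and 6.13 in PBOO tissues. The share of all gene pairs with such shifts was not counted.

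**Figure D3:**
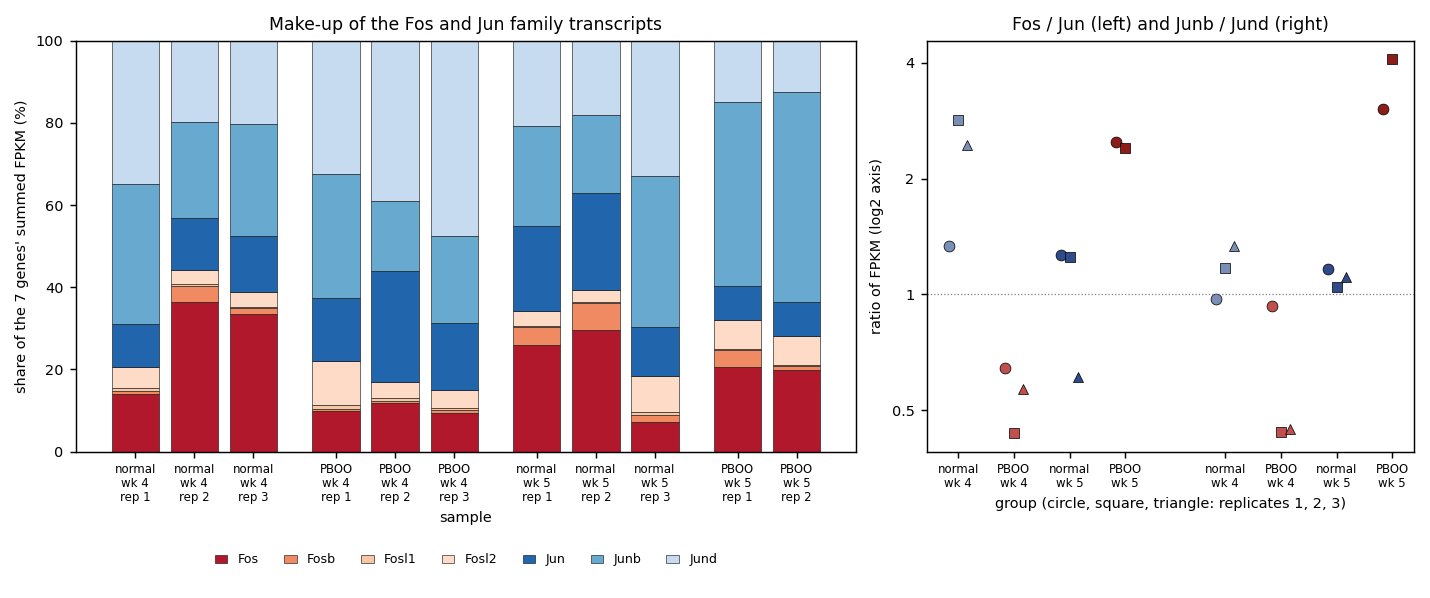
Left, share of each of the 7 Fos and Jun genes in their summed FPKM (percent), with 1 bar for each sample. Right, the Fos to Jun and Junb to Jund ratios of FPKM in each sample (log2 axis), by group. In PBOO week 5 tissues Junb makes up 44.9% and 51.0% of the sum, and both ratios lie below the normal ones at week 4 and above them at week 5.

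FPKM is per transcript length, so the levels of the genes can be ranked within a group. In normal week 4 tissues the means were 166 ± 94 for Fos, 153 ± 6.8 for Junb, 134 ± 16 for Jund and 116 ± 89 for Egr1 (SD, n = 3), and neighbours in this order overlapped. Jun (70.0 ± 22) and Ier2 (59.7 ± 13) followed with overlapping ranges, then Fosl2 (21.9 ± 0.79), Atf3 (19.1 ± 17) and Fosb (12.5 ± 11), and Fosl1 (2.49 ± 0.82) was below every other range. In PBOO week 4 tissues Jund (141 ± 58) stood first, ahead of Junb (74.6 ± 4.8) and Jun (72.4 ± 45), all with overlapping ranges, and Fos (36.6 ± 16), Ier2 (29.8 ± 2.4), Egr1 (25.1 ± 16), Fosl2 (19.3 ± 4.5) and Atf3 (15.0 ± 12) followed, each overlapping with its neighbours. In PBOO week 5 tissues Junb (346 ± 56, SD, n = 2) was first and did not overlap with the next genes, Ier2 (163 ± 24), Egr1 (162 ± 29) and Fos (149 ± 40). Jund (101 ± 37) overlapped with Fos, Jun (60.6 ± 15) lay below Jund and overlapped with Fosl2 (52.1 ± 13), and Fosb (19.8 ± 21), Atf3 (18.6 ± 21) and Fosl1 (1.82 ± 0.39) were lowest. In normal week 5 tissues Egr1 (307 ± 283, SD, n = 3) had the highest mean and Fosl1 (2.34 ± 0.19) the lowest, and every other pair of neighbours overlapped.

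The spread among normal tissues was far larger for these genes than for most others. In normal week 5 tissues Egr1 differed 47.1-fold between its highest and lowest sample, Atf3 23.1-fold, Fosb 16.02-fold and Fos 15.98-fold. On the log2 scale the SD of Egr1 was 2.997, against a median of 0.15 over 13404 genes, and 99.7% of genes had a lower SD. Normal week 5 replicate 3 was lowest for 9 of the 10 genes, all but Fosl1, and for 42.4% of all genes. Normal week 5 replicate 2 was the highest for all 10, and for 44.2% of all genes. Fosl1 had an SD of 0.11 in the same samples, and in normal week 4 tissues Fosl2 and Junb differed 1.06-fold and 1.09-fold at most. At week 4, normal replicate 1 was lowest for 6 genes and PBOO replicate 1 for 8, beside 40.9% and 23.8% of all genes.

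**Figure D4:**
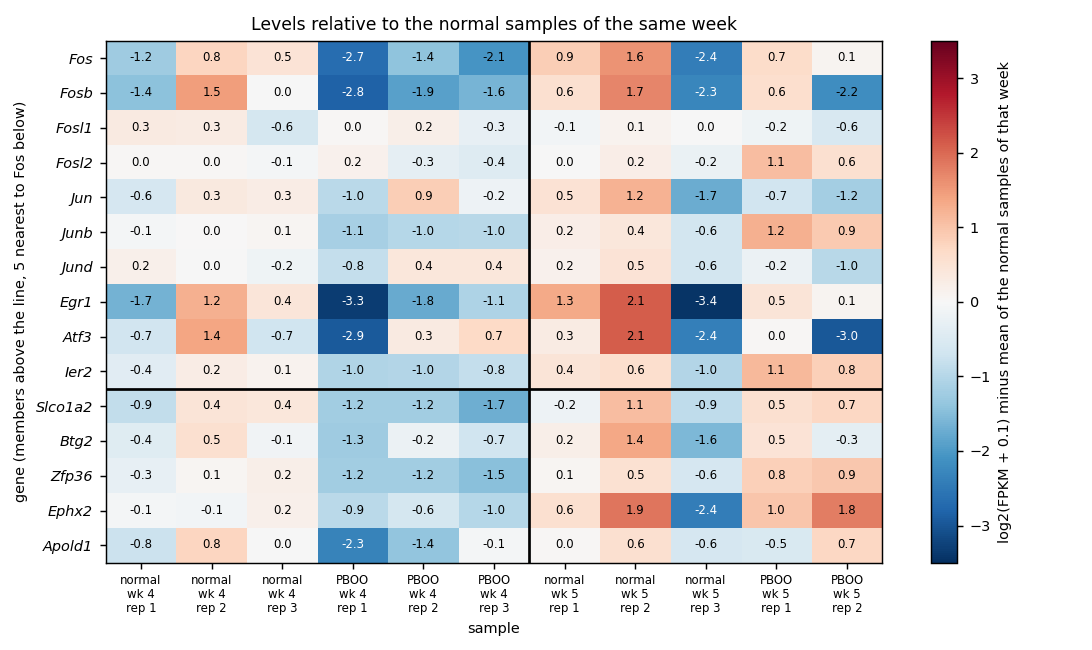
Level of each gene in each sample, as log2(FPKM + 0.1) minus the mean of the normal samples of the same week, for the 10 genes (above the line) and the 5 genes nearest to Fos (below it). Blue is lower and red higher, and the number is the value. The column of normal week 5 replicate 3 is blue for Fos, Fosb, Jun, Egr1, Atf3 and Ier2, with -3.4 for Egr1.

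Normal week 5 tissues were also set beside normal week 4 tissues. The same normal samples entered the contrasts on which the genes were selected, so these differences are a description as well. Over 11131 genes the median log2 difference was -0.52, and none of the 10 genes passed an adjusted p under 0.05 with a 2-fold difference by limma, beside 2.30% of all genes upward and 26.2% downward. Fosl2 was higher in all 3 normal week 5 samples than in the week 4 ones, by 0.40 ± 0.13 on the log2 scale. The other 9 genes overlapped between the weeks. The share of all genes without overlap was not counted for the normal tissues. Without normal week 5 replicate 3, the log2 differences of Jun, Junb, Jund and Ier2 rose from 0.76, 0.08, 0.14 and 0.49 to 1.62, 0.40, 0.46 and 1.01. With median-ratio scaling, which brought the median of all genes to -0.00068, the differences of all 10 genes were positive. They ran from 0.19 ± 1.03 for Fos to 1.83 ± 1.09 for Fosb, with Junb at 0.61 ± 0.23 and Jund at 0.67 ± 0.25.

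The genes whose course over the 11 samples was most like that of Fos were sought by the root mean square difference of their relative log2 levels among 10674 genes. This difference includes the PBOO samples, whose contrasts were in view when the members were chosen. How close the members lie to Fos is therefore a description and no test. Among the members, Egr1 (0.56) and Fosb (0.77) were closest to Fos and Fosl1 (1.56) was farthest. Outside the set, the nearest were Slco1a2 (0.77), a membrane transporter of organic anions, Btg2 (0.84), an antiproliferative immediate early gene, Zfp36 (0.94), which brings about decay of short-lived mRNAs, Ephx2 (0.95), a soluble epoxide hydrolase, and Apold1 (1.02), an endothelial early response gene. Slco1a2 was low, between 0.413 and 3.10 FPKM in the 11 samples, and its counting error is unknown. Ier2 (0.91) and Junb (1.03) had 0.019% and 0.056% of the genes compared nearer to Fos than themselves, and Jun (1.22) had 1.38%. For Fosl2, Jund, Atf3 and Fosl1 this share was 32.5%, 37.8%, 48.3% and 73.3%, so these members were not particularly close to Fos.

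Genes of the same pathway were taken from hand-written lists. The lists were chosen with earlier results of these data known, so their counts and p values are a description and no independent test. Of 27 other immediate early genes tested at week 4, 0 passed the adjusted threshold in either direction, and their median was -0.33 against -0.25 over all genes. Id3 (-1.18 ± 0.30), Cebpd (-1.13 ± 0.23) and Sik1 (-1.02 ± 0.25) passed only at an unadjusted p. At week 5, 6 of 29 were upregulated and 4 downregulated by limma, beside 7.91% and 11.4% of all genes, with a median of 0.07. The downregulated share was near that of all genes. Cebpd, a bZIP factor of inflammation, rose by 2.02 ± 0.31 (adjusted p = 0.0070, limma), Gadd45b by 1.97 ± 0.26 and Btg1 by 1.85 ± 0.23, while Arc fell by 5.59 ± 1.20 (adjusted p = 0.0207, limma), Npas4 by 3.48 ± 0.71 and Gadd45g by 3.15 ± 0.77. Arc and Gadd45g were no longer called when any single sample other than normal week 5 replicate 3 was left out, and Npas4 was not called without PBOO week 5 replicate 2. Cebpd had the same signs as Junb, at 31.1, 47.2 and 39.3 FPKM in normal and 13.1, 18.5 and 22.4 in PBOO week 4 tissues, and at 9.45, 11.3 and 7.36 in normal and 28.0 and 51.1 in PBOO week 5 tissues.

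Of 22 feedback inhibitors tested, Zfp36 was downregulated at week 4 (-1.30 ± 0.15, adjusted p = 0.0483, limma) and no other passed, with a median of -0.23. This call was lost without normal week 4 replicate 2 or 3 and without PBOO week 4 replicate 2 or 3. Zfp36 was at 113, 144 and 157 FPKM in normal and at 59.0, 58.3 and 49.2 in PBOO week 4 tissues, and at 106, 146 and 67.3 in normal and 179 and 193 in PBOO week 5 tissues. It was thus apart in the same directions as Junb and Ier2, although its week 5 value of 0.88 ± 0.32 did not pass (adjusted p = 0.0927, limma). At week 5, 4 of 22 were upregulated, among them Socs3 (2.74 ± 0.38) and Dusp4 (1.63 ± 0.29), 1 was downregulated (Dusp8, -3.60 ± 0.38), and the median was 0.56. Over all genes, 7.91% were upregulated and 11.4% downregulated at week 5. Dusp4 was not called without normal week 5 replicate 1.

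Among 29 upstream kinases and serum response factors at week 4, 0 passed the adjusted threshold, with a median of -0.17. At week 5, 3 of 31 were upregulated and 3 downregulated, shares near the 7.91% and 11.4% of all genes. Upregulated were the stress-activated kinases Mapk13 (1.88 ± 0.12) and Mapk12 (1.06 ± 0.19) and the ribosomal S6 kinase Rps6ka1 (1.35 ± 0.19). Downregulated were Rps6ka2 (-3.14 ± 0.18), Srf (-1.52 ± 0.24), the serum response factor itself, and Creb1 (-1.49 ± 0.33). Srf was at 77.4, 79.5 and 78.7 FPKM in normal and at 36.1 and 20.7 in PBOO week 5 tissues, which did not overlap. The call of Creb1 was lost without any 1 of the normal samples, and that of Mapk12 without normal week 5 replicate 1 or PBOO week 5 replicate 1. Among the 24 other bZIP partners at week 4, 0 passed. For week 5, 3 of 26 were upregulated and 1 downregulated, again beside 7.91% and 11.4% of all genes. They included Batf2, Batf (1.96 ± 0.50) and the downregulated Nfe2l3 (-2.69 ± 0.69). Batf2, which can pair with Jun proteins, was listed at 0, 0 and 0.026 FPKM in normal and at 1.25 and 7.18 in PBOO week 5 tissues, and the calls of Batf2, Batf and Nfe2l3 were each lost when at least 1 sample was left out.

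AP-1 target genes had the highest median of the 6 lists at week 5. This list too was chosen with earlier results known, so its counts are a description, and AP-1 activity was not tested. At week 4, 0 of 22 passed the adjusted threshold and the median was 0.17. The week 5 median was 1.90, and 15 of 23 were upregulated and 0 downregulated, beside 7.91% and 11.4% of all genes. With single samples left out, between 10 (without PBOO week 5 replicate 2) and 15 were upregulated. Collagenase Mmp13 was at 0.460, 0.288 and 0.035 FPKM in normal and at 20.1 and 21.7 in PBOO week 5 tissues (6.09 ± 0.62, adjusted p = 0.0021, limma). Stromelysin Mmp3 was at 1.09, 0.427 and 0.322 FPKM in normal and at 12.8 and 48.4 in PBOO week 5 tissues (5.28 ± 0.69). Gelatinase Mmp9 was listed at 0, 0.021 and 0 FPKM in normal and at 1.83 and 36.7 in PBOO week 5 tissues. The leukocyte marker sum also rose in these samples, to 269.5 and 1143 FPKM from between 34.5 and 86.5, and its part in this list was not tested. Of the heat shock genes, 0 of 19 passed at week 4. Of 18 tested at week 5, 1 was upregulated and 4 were downregulated, beside 7.91% and 11.4% of all genes. The upregulated gene was Hspa8 (1.01 ± 0.17), not called without normal week 5 replicate 1 or 2 or PBOO week 5 replicate 1. Among those downregulated were Hspb8 (-4.36 ± 0.19) and Cryab (-4.17 ± 0.34), both chaperones of muscle, beside the downregulation of all 10 smooth muscle markers.

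**Figure D5:**
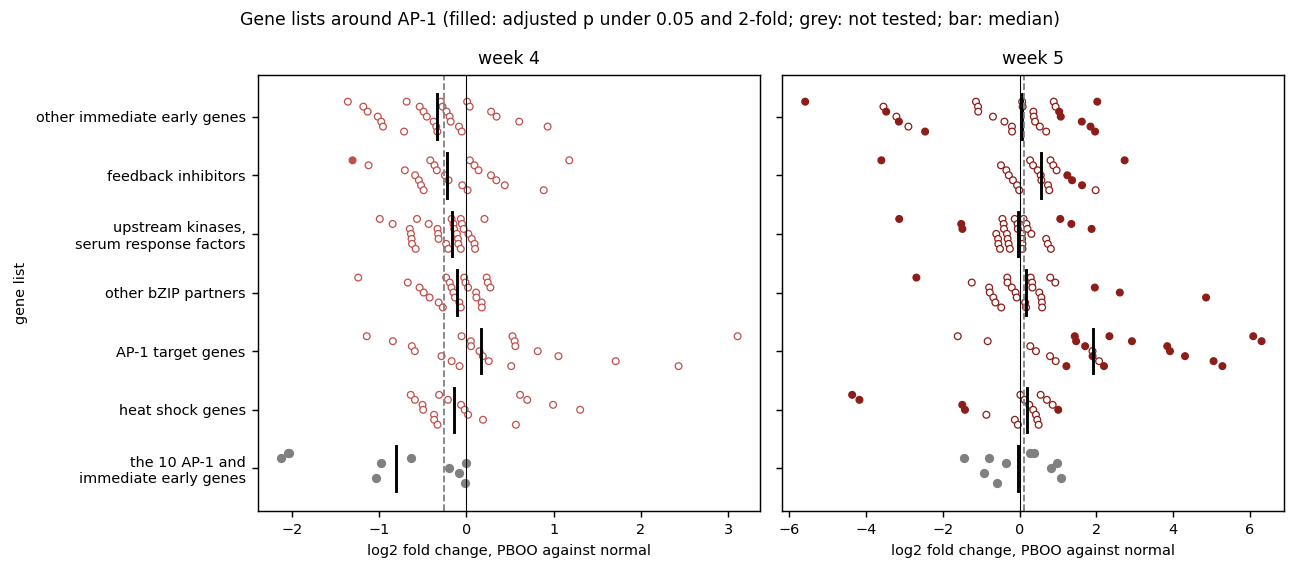
Log2 fold change of PBOO against normal tissues on the log2(FPKM + 0.1) scale for each gene of the 6 lists and, in grey, the 10 AP-1 and immediate early genes, at week 4 (left) and week 5 (right, wider axis). Filled points passed an adjusted p under 0.05 and a 2-fold change, black bars are list medians and the dashed line is the median of all genes. Hsp90aa1 at week 4, listed at 0 in all 3 normal samples, is not drawn, and the AP-1 target list has its median at 1.90 at week 5.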

How the data were processed

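RNA-seq of bladder tissues from 11 rats was used. The authors describe TruSeq libraries read in pairs on a HiSeq4000, which were cleaned with SeqPrep and Sickle and then passed to HISAT2 (mapping), StringTie (assembly) and DESeq2 (differential expression), and they deposited one table of FPKM values. The submitters' processing notes name mm10, a mouse build, although the samples are rat, so the build of the table is uncertain and no coordinate was taken from it. The table holds no counts, its low values did not fall on whole reads, and the depth of each sample, and with it any counting error, is unknown. Columns were assigned to groups from the sample labels. The normal week 5 columns are named as adult samples, with no week in the name, and only the sample records give them as week 5 normals, on which every week 5 value depends.

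Values were compared on log2(FPKM + 0.1) keeping genes whose mean over the compared samples reached 0.5 FPKM, with limma 3.58.1 (lmFit, eBayes with a trend) in R 4.3.3, two-sided, with Benjamini-Hochberg adjustment over all genes tested. Each week was fitted separately. A fold change on this scale understates that of low genes. The paper calls the replicates biological. Figures and promoter searches used Python 3.11.15, pandas 2.3.3, numpy 2.4.6 and matplotlib 3.10.9. The steps were tested on simulated data first.

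The members and the gene lists were chosen with earlier results of these data known. From each list up to 3 genes per direction and week were eligible to be named, those with the largest change, provided that p before adjustment was under 0.05, the change reached 2-fold, the mean reached 1 FPKM and the groups were apart. The 5 genes nearest to Fos were named by their root mean square difference.

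Alternatives were pseudocounts of 1 and 0.01, other filters, median-ratio and quantile scaling, eBayes without trend, a joint fit, a replicate block and leaving out each sample. Leaving out samples for the gene lists was chosen after seeing the data. The result for 1 gene of the lists is not reported here.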

Additional observations from a re-analysis of the deposited data

Results flagged for a closer look

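Some of the named genes lay to one side of all normal samples in every PBOO sample at week 4 and to the opposite side in both PBOO samples at week 5. This pattern was common: of 10684 genes tested in both weeks, 15.0% were lower at week 4 and higher at week 5, and 4.00% the reverse, so it is not particular to the genes below. The difference between the weeks, given below as the log2 fold change at week 5 minus that at week 4, was not tested for any of them, and the weeks also differ in the level at which many genes are listed. Among the 10 AP-1 and immediate early genes these were Junb (a difference of 2.12, from -1.04 to 1.08) and Ier2 (1.95, from -0.98 to 0.97).

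Of 140 genes of the pathway lists, 18 (12.9%) were lower at week 4 and higher at week 5 and 2 (1.43%) the reverse, and only those named by the rule on list genes are given here. Zfp36 differed by 2.18, Cebpd by 3.15, Btg1 by 2.38, Id3 by 1.71, Batf3 by 2.04, Mapk12 by 1.69 and Hspa8 by 1.38, each lower at week 4 and higher at week 5. Cryab went the other way, with a difference of -5.48, from 1.304 at week 4 to -4.17 at week 5. The ratio of Fos to Jun differed by 3.26 on the log2 scale and the ratio of Junb to Jund by 2.69, both lower at week 4 and higher at week 5.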

How the results depend on the processing

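At week 4, 42 genes passed the adjusted threshold with a 2-fold change, and this number depended on the setting: 0 with no filter on low values, 0 with median-ratio scaling, 0 with eBayes without trend, 80 with quantile normalization, 242 in a joint fit over all 11 samples, and between 0 and 719 when 1 sample was left out, the highest without PBOO week 4 replicate 1. Unadjusted, 3621 genes had p under 0.05 at any fold. At week 5 the number was 2637 and ran from 1679 (without normal week 5 replicate 1) to 3503 (without PBOO week 5 replicate 1). Calls of the 10 genes given here are a description and no test of them. Junb was called at week 4 with other pseudocounts, with a mean of at least 1 FPKM, in the joint fit and without normal week 4 replicate 1, and not with median-ratio or quantile scaling, no filter, no trend or any other sample left out. Same-numbered samples correlated at 0.15, -0.02 and 0.23 at week 4, and different-numbered ones between -0.21 and 0.09. At week 5 same-numbered samples correlated at 0.00 and 0.12. With only 2 PBOO samples there, the values of one mirror those of the other and cannot decide on pairing. The labels name no pairs, and the replicate numbers were not taken to pair samples, although the week 4 values do not exclude it. With a replicate block the week 4 SE of Fos was 0.22 instead of 0.55. With a replicate block, 55 genes were called at week 4 (Fos and Junb among the members) and 2319 at week 5 (Jun and Egr1), and the week 5 block, which leaves out the unpaired normal replicate 3, gave a median of -0.87 for the 10 genes. Of 290 values of the 10 genes under alternatives, 25 changed sign, in 5 genes at week 4 and 4 at week 5. Because depth is unknown, no counting error stands beside any value.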
